A study of Mus musculus with 9 samples.

Results

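The genes described here encode pre-mRNA splicing factors: the SR proteins (Srsf genes), the hnRNP proteins, the SF3a and SF3b subunits of the U2 snRNP, and the related regulators Tra2a, Tra2b, Ptbp1 to Ptbp3, Rbmx, Rbmxl2, Celf1 and Mbnl1. They were chosen by name alone, as the rows of the deposited expression table whose first gene name belongs to these families. This gave 85 of 29661 rows, 1 row per RefSeq transcript, and 47 of 19760 named genes. Summed over a gene's rows, 46 of the 47 had a mean FPKM of at least 1, as did 11994 genes in all. The remaining member, Srsf12, was at 0.626 and 0.495 FPKM and is left out of the counts below.

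The tissue was whole testis of C57BL/6 mice at postnatal day 10, sequenced in 3 libraries of the genotype Lin28a knockout and 3 of wild type, by their labels. Sample titles of the first group carry the abbreviation cKO, which the labels do not spell out, and no promoter or cell type behind any Cre is named in the sources used here. Another 3 samples of the series, of RNA bound to LIN28A, were not analysed here. Nothing in the labels ties each library to an animal of its own. FPKM, a fragment count corrected for transcript length and library size, comes in 2 columns named case and control, each a single pooled value, so no SD or n can be given for any level. The case column was read as the knockout and the control column as the wild type from those names alone. The level of Lin28a itself goes against that reading, at 23.4 FPKM for case and 8.82 FPKM for control, or 2.66-fold higher where a knockout would be lower. That difference passed the authors' own test, with q = 0.00191 in the authors' deposited table. Every direction below therefore rests on the column names, and "higher" and "lower" mean the case column against the control column.

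Splicing removes introns in steps. The SF3a and SF3b complexes, as parts of the U2 snRNP, hold the branch site of the intron, while SR proteins bind exonic enhancers through RNA recognition motifs and recruit the core machinery through domains rich in arginine and serine. The hnRNP and PTB proteins coat nascent RNA and often oppose exon inclusion, and CELF and MBNL proteins steer developmental switches in splicing. Testis is a tissue with abundant alternative splicing, and germ cells use specialised members such as Ptbp2 and Rbmxl2. LIN28 proteins have been reported in other cell types to bind mRNAs of splicing factors.

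Promoter sequences are shown as examples for SF3 subunits and for the Rbmx and Rbmxl2 pair. All families were searched for the same motifs, and no family was tested against the others. The sequences were read from RefSeq (GRCm38.p6, the assembly of mm10), whose promoter table held 43 of the 47 genes. Only the 250 bases before the start were searched, on both strands, and each stretch below ends at or before the start. In 6 of 7 SF3 genes with a promoter the letters CCGGAAG, the core of an ETS factor motif, or the reverse CTTCCGG were found. Capitals mark each match.
Sf3a1: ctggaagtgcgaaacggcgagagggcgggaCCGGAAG
Sf3a2: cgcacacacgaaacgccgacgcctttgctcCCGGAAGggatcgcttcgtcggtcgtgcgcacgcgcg
Sf3a3: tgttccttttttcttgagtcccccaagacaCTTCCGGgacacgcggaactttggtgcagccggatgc
Sf3b2: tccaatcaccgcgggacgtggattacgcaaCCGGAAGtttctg
Sf3b3: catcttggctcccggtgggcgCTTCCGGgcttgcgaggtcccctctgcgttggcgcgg
Sf3b14: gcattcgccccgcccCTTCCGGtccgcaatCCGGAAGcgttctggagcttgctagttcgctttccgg
These lie at chr11:4160317-4160353 (plus strand), chr10:80798629-80798695 (plus), chr4:124714741-124714807 (plus), chr19:5295456-5295498 (minus), chr8:110846996-110847053 (minus) and chr12:4817508-4817574 (plus). Sf3b14 is named Sf3b6 in RefSeq and holds the match on each strand. Sf3b1 was searched and does not hold it, and promoters of Sf3b4 and Sf3b5 were not analysed here.

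The ETS core was found in 12 of the 43 members (27.9%), against 15.9% of 9033 genes expressed at 1 FPKM or more and 7.83% of all 27025 genes in the promoter table. The matches were uneven over the families, in 3 of 3 SF3a, 3 of 4 SF3b, 4 of 11 SR and 2 of 17 hnRNP genes. They were in 0 of the TRA2, PTB, RBMX, CELF and MBNL genes. Besides the SF3 genes, the matches were in Srsf4, Srsf5, Srsf7, Srsf11, Hnrnpd and Hnrnpf. The letters CCAAT (reverse ATTGG) were in 23 members (53.5%; 41.1% of the expressed genes and 37.5% of all), of which 13 were among the 17 hnRNP genes searched and 3 among the 11 SR genes. GGGCGG (reverse CCGCCC), the GC box, was in 33 members (76.7%; 66.3% and 35.4%), and CACGTG, an E box, in 6 (14.0%; 10.4% and 6.86%). TATAAA (reverse TTTATA) was in 5 members, Srsf2, Srsf3, Hnrnpm, Mbnl1 and Sf3b3, or 11.6% against 7.42% and 14.3%. TGACGTCA, the cyclic AMP response element, was in Tra2a alone (2.33%; 3.06% and 1.77%). A gene counts once if any of its listed promoters holds the letters. None of these motifs contains another, though neighbouring matches can share end letters, and a match describes letters, not binding.

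Both Rbmx and its germ cell relative Rbmxl2 hold CCAAT, in capitals here, within otherwise different promoters.
Rbmx: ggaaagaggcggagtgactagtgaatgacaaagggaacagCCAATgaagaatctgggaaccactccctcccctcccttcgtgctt
Rbmxl2: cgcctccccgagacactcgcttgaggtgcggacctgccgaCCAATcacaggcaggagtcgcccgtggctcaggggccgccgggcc
The first is at chrX:57393063-57393147 (minus strand), the second at chr7:107209286-107209370 (plus strand).

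As a set, the splicing factors stood at almost the same level in both columns. Their FPKM summed to 4059 in the case column and 3911 in the control column, 1.04-fold higher, and made up 1.24% and 1.20% of all FPKM. On the scale of log2(FPKM + 1), the median of case minus control was 0.06 over the 46 genes, beside 0.03 over all 11994 genes. Of the 46, 38 were higher and 8 lower (82.6% higher), where 60.7% of all genes were higher. After the columns were rescaled by the median ratio of all genes, a shift of 0.037 on the log2 scale, 29 members were higher and 17 lower (63.0% higher). The share of all genes is then 50%, which the rescaling itself fixes. Quantile normalization left 34 higher, 11 lower and 1 equal, beside 52.2% of all genes higher. With 1 pooled value a group and unknown depth, the spread between libraries that these small differences would have to exceed is unknown.

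No member row passed the authors' test. Of 41 member rows with a usable p-value in the authors' deposited table, 0 had a q-value under 0.05, where 0.0514% of 13629 rows did. At an unadjusted p under 0.05 in the authors' deposited table the count was also 0 of 41, beside 1.28% of all tested rows. The smallest p of a member row in the authors' deposited table was 0.347, in Rbmx, and the median was 0.765, beside 0.731 over all tested rows. By size, 1 of 46 genes, Rbmx, was higher by at least 25% (6.05% of all genes were) and 0 were lower by at least 20%, the same ratio in the other direction (4.10% of all genes). Among genes at a mean of 5 FPKM or more, which all 46 members reach, these shares were 2.94% and 2.46%. In 40 members (87.0%) the columns lay within 1.1-fold of each other, beside 61.9% of all genes and 69.6% of those at 5 FPKM or more. The members were also more abundant, at a median control FPKM of 63.1 beside 17.7 for genes at 5 FPKM or more. No comparison at matched level was made.

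**Figure D1:**
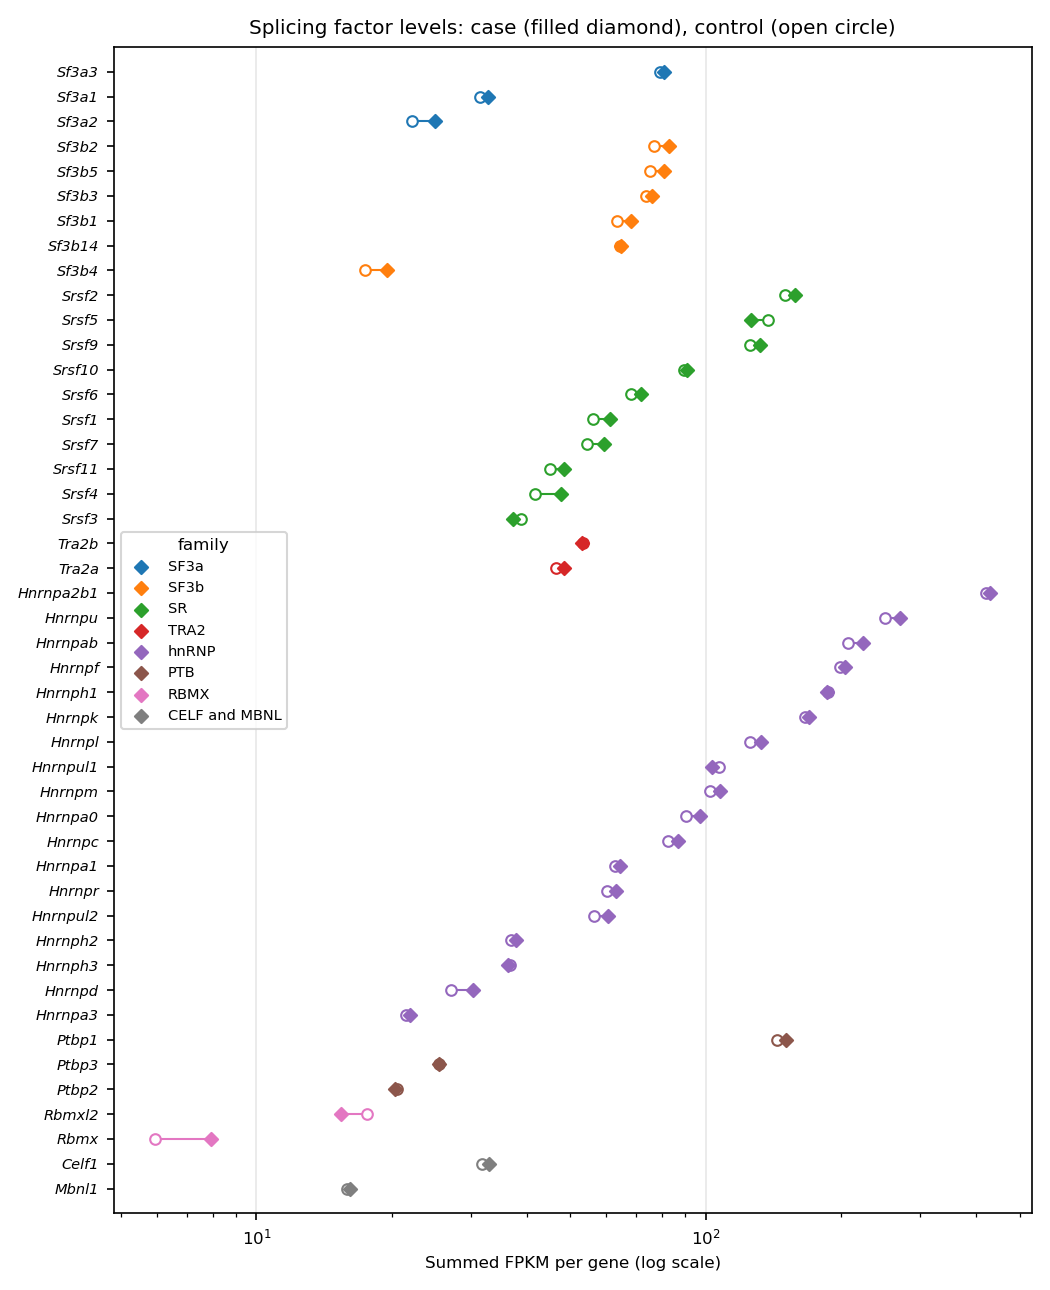
FPKM summed per gene on a log axis for the 46 splicing factors with a mean FPKM of at least 1, grouped by family, with the case column as filled diamonds and the control column as open circles. The symbols lie close together in most genes, from Hnrnpa2b1 at 430 and 420 FPKM down to Rbmx at 7.93 and 5.96, where they are farthest apart.

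The SF3 subunits, constitutive parts of the U2 snRNP, were all higher by small amounts. In SF3a, Sf3a3 was at 80.7 FPKM in the case column and 78.9 in the control column. Sf3a1 was at 32.7 and 31.5, and Sf3a2 at 24.98 and 22.16. In SF3b, Sf3b1, the large scaffold subunit that contacts the branch site, was at 68.1 and 63.5 FPKM. Sf3b2 was at 82.7 and 76.7, and Sf3b3 at 75.9 and 73.7. The small subunits Sf3b5 and Sf3b14 were at 80.6 and 75.02 and at 64.9 and 64.6, while Sf3b4 was the lowest of the complex at 19.5 and 17.5. So 5 of the 6 SF3b genes lay between 63.5 and 82.7 FPKM over both columns, and Sf3b4 stood well below them. The median differences of log2(FPKM + 1) were 0.05 for the 3 SF3a genes and 0.10 for the 6 SF3b genes. After rescaling by the median ratio, 2 of 3 SF3a and 5 of 6 SF3b genes were higher, Sf3a3 and Sf3b14 having changed sign. Each of the 9 genes has a single row, and their p-values in the authors' deposited table lay between 0.558 and 0.979.

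SR genes covered a wide range of levels and were mostly higher, with Srsf5 and Srsf3 lower. Srsf2, which binds exonic enhancers and also acts in transcription elongation, was the most abundant, at 158 FPKM in the case column and 150 in the control column. Next came Srsf5 (chr12:80945504-80950507) at 126 and 138, and Srsf9 at 132 and 125. Srsf5 was thus 1.09-fold lower, the largest gap in that direction among SR genes, and its 3 rows were each lower (26.8 and 30.6, 53.9 and 57.2, 45.6 and 49.997 FPKM). All 3 have status FAIL in the authors' deposited table, so no p-value is at hand for Srsf5.

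Srsf10, a splicing repressor when dephosphorylated, was at 90.9 and 89.5 FPKM, and Srsf6 at 71.6 and 68.0. Srsf1, the founding SR protein, was at 61.2 and 56.2, and Srsf7, which also promotes mRNA export, at 59.4 and 54.5. Srsf11 was at 48.5 and 45.1 FPKM. These 5 genes were all higher, by between 1.02-fold and 1.09-fold. Srsf4 (chr4:131873639-131901725) was at 47.6 and 41.7, 1.14-fold higher and the largest gap among the 10 SR genes analysed, with p = 0.441 in the authors' deposited table. Srsf3, a small SR protein tied to mRNA export and to 3' end choice, was at 37.3 and 38.8. The SR median difference was 0.07 with 8 of 10 higher, and after rescaling by the median ratio 7 of 10 were higher, with Srsf10 changing sign. The SR-like Tra2 genes, which activate exons in testis and elsewhere, were close to level, with Tra2b at 53.1 and 53.4 FPKM and Tra2a at 48.3 and 46.3.

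The hnRNP genes were the most abundant family and again lay close to level. Hnrnpa2b1 (chr6:51460435-51469894), a packaging protein of nascent RNA, led all members at 430 FPKM in the case column and 420 in the control column. Hnrnpu, a nuclear matrix protein, followed at 270 and 250, and Hnrnpab at 224 and 207. Hnrnpf, which binds runs of G, was at 204 and 199, and its relative Hnrnph1 at 186 and 187. Hnrnpk, which binds runs of C, was at 169 and 166 FPKM, and Hnrnpl, which binds CA repeats, at 133 and 126. The order of these 7 genes was the same in both columns. Hnrnpm was at 107 and 102 FPKM, Hnrnpul1 at 103 and 107, and Hnrnpa0 at 97.3 and 90.4. Hnrnpc, which binds runs of U, was at 86.7 and 82.4.

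Below these, Hnrnpa1 was at 64.5 and 62.7 FPKM, Hnrnpr at 63.0 and 60.3, and Hnrnpul2 at 60.6 and 56.3. Hnrnph2, on chromosome X, was at 37.8 and 36.9, and Hnrnph3 at 36.2 and 36.7. Hnrnpd, also called AUF1, which binds AU-rich mRNAs, was at 30.3 and 27.0, 1.12-fold higher and the largest gap of the family. Hnrnpa3 was the lowest hnRNP gene, at 21.9 and 21.6. Of 18 hnRNP genes 15 were higher, with a median difference of 0.05, and 11 of 18 were higher after rescaling by the median ratio. The 3 lower ones, Hnrnpul1, Hnrnph1 and Hnrnph3, were lower by at most 1.03-fold. Genes such as Hnrnpa1, Hnrnpa3 and Srsf3 have many processed pseudogenes that can take their reads, so their levels are uncertain.

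**Figure D2:**
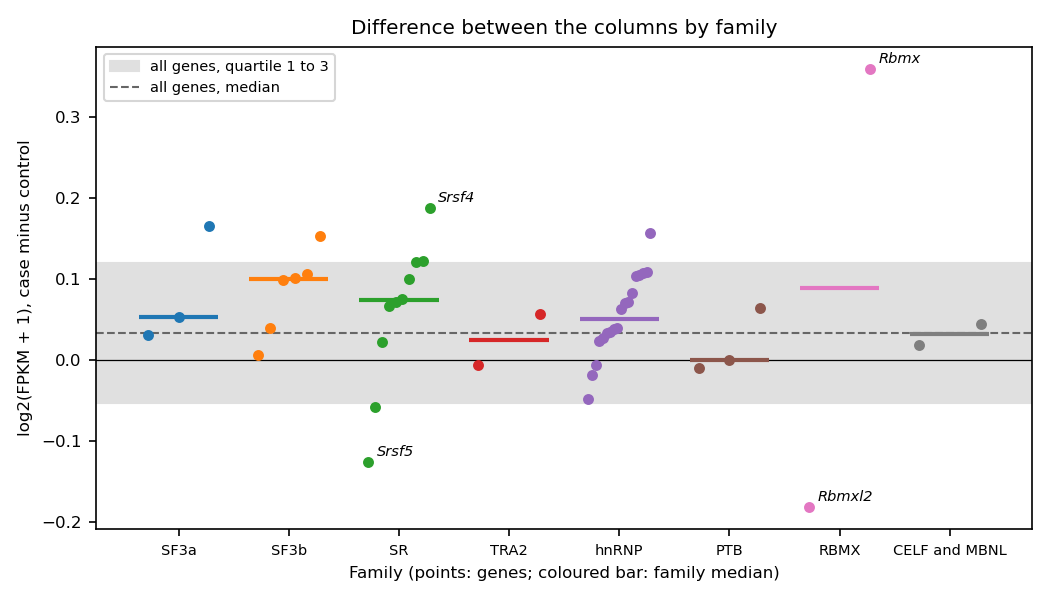
Case minus control on the scale of log2(FPKM + 1) for each of the 46 genes by family (points), with the family median as a coloured bar, the median of all genes as a dashed line and their middle quartiles as a grey band. Inside the band lie 17 of 18 hnRNP points, 2 of 3 SF3a, 5 of 6 SF3b and 5 of 10 SR points, with Rbmx at 0.36 the highest point and Rbmxl2 at -0.18 the lowest.

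Among the PTB proteins, repressors that bind pyrimidine tracts, Ptbp1 was at 151 FPKM in the case column and 144 in the control column. Ptbp2, the form found in neurons and germ cells, was at 20.4 and 20.5 FPKM (the authors' deposited table gives p = 0.970). Ptbp3 was at 25.5 in both columns. Ptbp1 was therefore 7.42 times the level of Ptbp2 in the case column and 7.04 times in the control column, and 5.92 and 5.66 times that of Ptbp3. Among other relatives, Hnrnpa2b1 was 6.66 and 6.69 times Hnrnpa1, Hnrnph1 was 4.92 and 5.07 times Hnrnph2, and Srsf1 was 0.463 and 0.448 times Srsf9. The ratio of Srsf5 to Srsf6 was 1.76 in the case column and 2.03 in the control column, that of Srsf6 to Srsf4 1.503 and 1.631, and that of Srsf3 to Srsf7 0.627 and 0.712. Tra2b was 1.101 and 1.151 times Tra2a, and Srsf10 145 and 181 times Srsf12, which is under 1 FPKM. Celf1 was at 32.9 and 31.8 FPKM, and Mbnl1 at 16.1 and 15.9. Median differences were close to 0 for PTB (0.00039) and small for TRA2 (0.03) and CELF and MBNL (0.03), and all 3 turned negative after rescaling by the median ratio. With Mbnl1 rows that carry no gene name joined, the CELF and MBNL median was 0.07 before rescaling, and rescaling was not run on it.

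Rbmx and Rbmxl2 were the pair that stood farthest apart. Rbmx (mm10 chrX:57383348-57393036), the X-linked gene of hnRNP G, was at 7.93 FPKM in the case column and 5.96 in the control column, 1.33-fold higher. Its 2 rows were at 3.19 and 2.56 FPKM and at 4.74 and 3.40 FPKM, with p = 0.578 and p = 0.347 in the authors' deposited table. Rbmxl2 (chr7:107209445-107210916), an intronless autosomal copy expressed in germ cells around meiosis, was at 15.4 and 17.6 FPKM, or 1.14-fold lower (the authors' deposited table gives p = 0.572). Over the rows that carry a gene name, the ratio of Rbmx to Rbmxl2 was thus 0.513 in the case column and 0.338 in the control column. Another Rbmx transcript, a noncoding one by its NR accession, carries no gene name in the table and so fell outside the rule. It was at 14.6 and 12.9 FPKM (the authors' deposited table gives p = 0.570), above the other 2 rows together. With it, Rbmx was at 22.6 and 18.9 FPKM, 1.20-fold higher, and no longer past 25%. Rbmx then stood above Rbmxl2 in both columns, so the order of the pair depends on this row.

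Markers of meiotic prophase lay in the same direction as Rbmxl2. Of these, 15 of 15 were lower, with a median difference of -0.56 and a summed level of 394 FPKM in the case column against 577 in the control column. By the authors' deposited table, taking the row with the highest FPKM, 0 of the 14 with a usable p-value had a q-value under 0.05. An unadjusted p under 0.05 in that table was found for 6 of them. Over all tested rows these shares were 0.0514% and 1.28%. Spermatogonial markers had a median of -0.01 with 4 of 10 higher (783 and 830 FPKM summed), and Sertoli cell markers one of -0.08 with 4 of 10 higher (2596 and 2817). Markers of Leydig cells (7 of 7, 332 and 255 FPKM summed), peritubular and stromal cells (7 of 7, 691 and 587) and endothelial cells (5 of 5, 38.8 and 31.7) were higher. Of all 11994 genes, 60.7% were higher. Macrophage markers were higher in 1 of 5, at 49.4 and 60.1 FPKM summed. Picked once values were known, Cd74 was the higher one, at 6.22 and 2.04 FPKM. Among the 4 lower ones, Lyz2 at 31.9 and 45.6 FPKM made up most of the sum. By the authors' deposited table, 1 of 10 Sertoli, 1 of 7 Leydig and 1 of 5 macrophage markers had an unadjusted p under 0.05, and 0 had a q-value under 0.05. Of all these markers, 0 were listed at 0 in either column. The part of these shifts in the values of the splicing factors was not tested, and in whole tissue fewer cells of a type and less RNA per cell cannot be told apart.

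Within genes, the mix of transcripts differed by a few percentage points in most members. Of the 47 genes, 19 have more than 1 row, but Hnrnpa1 has a row, NM_010447, that is listed at 0 in both columns, so its mix cannot be compared. In 17 of the other 18 the same transcript held the largest share in both columns. The largest shift in share of any transcript had a median of 2.49 percentage points over these 18 genes, beside 3.62 points over 2548 genes with several rows above 0. A shift of at least 10 points occurred in 1 of 18 (5.56%) and in 18.5% of all 2548. No comparison of shares at matched level was made. The 46 members were more abundant, at a median control FPKM of 63.1 beside 12.2 for all genes at 1 FPKM or more. Shares of Srsf1, Srsf10 and Hnrnpul1 moved by less than 0.4 points: the main transcript of Srsf1 held 79.4% in the case column and 79.8% in the control column, and that of Srsf10 77.9% and 78.2%. In Ptbp1 the minor row NM_001077363 held 38.3% and 36.9%.

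The exception was Hnrnpa3 (chr2:75659259-75669407), a relative of Hnrnpa1 and Hnrnpa2b1. Its row NM_146130 was at 13.3 FPKM in the case column and 9.05 in the control column, and NM_053263 at 8.41 and 12.2, so that the first held 60.5% and 42.0% of the gene. The gene as a whole was at 21.9 and 21.6 FPKM. In Mbnl1, NM_020007 held 91.1% and 82.9% of the named rows, while NM_001253709 was at 1.18 and 2.42 FPKM. With 2 Mbnl1 rows that carry no gene name, NM_001253711 at 4.85 and 3.68 FPKM and NM_001253710 at 0.326 and 0.185, NM_020007 held 69.0% and 66.7% and NM_001253709 5.52% and 12.2%, of a gene then at 21.3 and 19.8 FPKM. In Srsf11, NM_001093753 was at 6.19 and 8.67 FPKM and held 12.8% and 19.2%. In Hnrnpm, NM_029804 was at 46.3 and 38.7 FPKM and held 43.1% and 37.9%. In Srsf7, NM_001195487 held 11.9% and 17.1%, or 9.62% and 13.7% with the noncoding row described below. In these 5 genes every row has status FAIL in the authors' deposited table and no usable p-value.

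**Figure D3:**
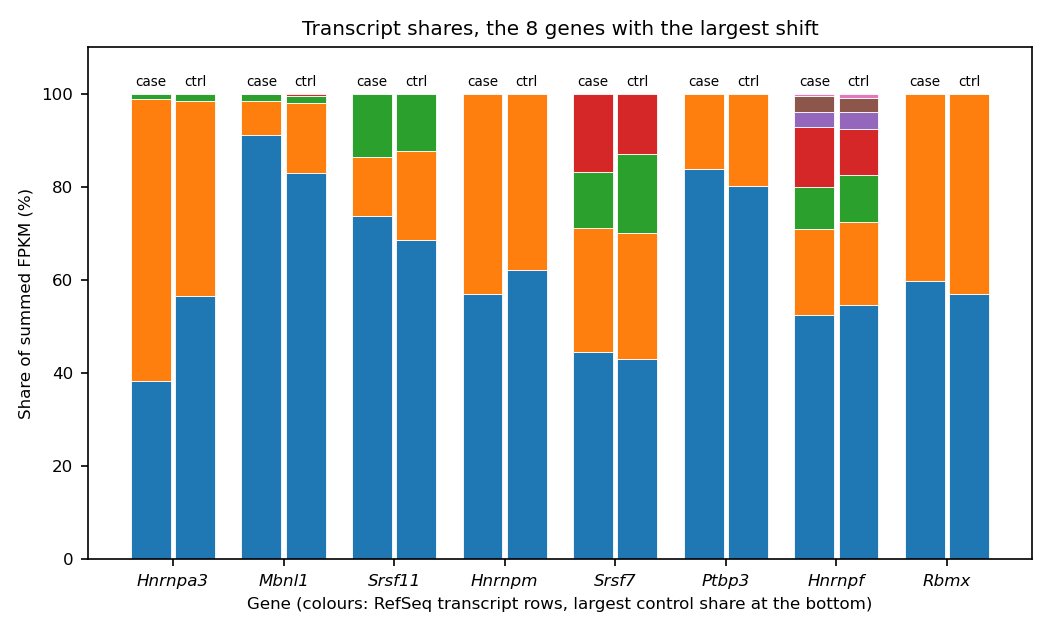
Share of a gene's summed FPKM held by each RefSeq transcript row, in percent, in the case and control columns, for the 8 splicing factors with the largest shift, over rows that carry the gene's name. Only in Hnrnpa3, of the 8 shown, does the largest segment differ between columns (60.5% against 42.0% for NM_146130).

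Status FAIL was common among the members and limits what can be read from them. It was the status of 38 of the 79 member rows with a mean FPKM of at least 1, where 14.5% of all such rows had it. Among genes of several rows it was 37 of 52 member rows beside 40.2% of all such rows, and among genes of a single row it was 1 of 27, Srsf3, beside 1.02%. In 12 members every row was FAIL. Of the 41 member rows of status OK, 0 were at least 1.5-fold higher (2.37% of all such rows) and 0 at least 1.5-fold lower (2.24%). When the 79 rows of every status above that minimum level were counted, 2 were at least 1.5-fold lower, NM_001253709 of Mbnl1 and NM_001166432 of Hnrnpf, the latter at 0.875 and 1.91 FPKM.

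Noncoding transcripts give a second view of the SR genes, several of which restrain their own output by including a poison exon that sends the transcript to nonsense-mediated decay. Rows with an NR accession, tied to their gene by RefSeq alone, exist for Srsf3, Srsf7 and Srsf9 besides Rbmx. The Srsf3 row was at 20.4 FPKM in the case column and 19.3 in the control column, 35.3% and 33.2% of the gene with that row included. That of Srsf7 was at 14.3 and 13.5 FPKM, or 19.4% and 19.9%. That of Srsf9 was at 3.19 and 4.56 FPKM, or 2.36% and 3.51%, with p = 0.443 in the authors' deposited table. Whether these rows hold the poison exon was not examined.

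In the rest of the splicing machinery no gene passed the authors' test either, judged by its row of highest FPKM where that row has a usable p-value. Other rows of these genes were not counted. In 6 further lists with 145 genes analysed, 0 of the 128 with a usable p-value were under 0.05 unadjusted in the authors' deposited table, taking the row with the highest FPKM, beside 1.28% of all tested rows. The U1, U2 and Sm core list had 17 of 29 higher and a median difference of 0.03, with Snrpa1 at 40.7 and 36.5 FPKM, Luc7l3 at 44.6 and 40.8 and Snrpg at 8.37 and 10.8. The U4/U6.U5 tri-snRNP list had 15 of 28 higher and a median of 0.02, with Prpf4b, a kinase of the tri-snRNP, at 26.6 and 22.8, Lsm3 at 127 and 147 and Nhp2l1 at 90.7 and 101.5. The list of Prp19 complex and catalytic steps had 17 of 29 higher and a median of 0.02, with Ppil1 at 58.4 and 52.6, Syf2 at 55.2 and 60.7 and Aqr at 33.3 and 30.8. These medians lay just under the 0.03 of all genes and turned negative after rescaling by the median ratio.

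SR protein kinases had 3 of 6 genes higher and a median of 0.02, also negative after that rescaling. Srpk1 was at 35.5 and 38.5 FPKM, Clk4 at 15.4 and 14.2 and Clk2 at 22.6 and 21.9. Clk1, chosen after its values were seen, was at 18.5 and 12.1 FPKM, 1.53-fold higher, with status FAIL in the authors' deposited table and so no usable p-value. Exon junction complex and nonsense-mediated decay genes had 13 of 18 higher and a median of 0.07, with Pnn at 50.8 and 45.2, Upf3b at 14.5 and 12.6 and Casc3 at 28.9 and 26.5. Other splicing regulators had 25 of 35 higher and a median of 0.07. Sfpq, a paraspeckle protein, was at 95.2 and 78.5 FPKM, Elavl2 at 10.0 and 13.1 and Khdrbs2 at 0.785 and 1.24, and the authors' deposited table gives p = 0.259, p = 0.154 and p = 0.371 for them.

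**Figure D4:**
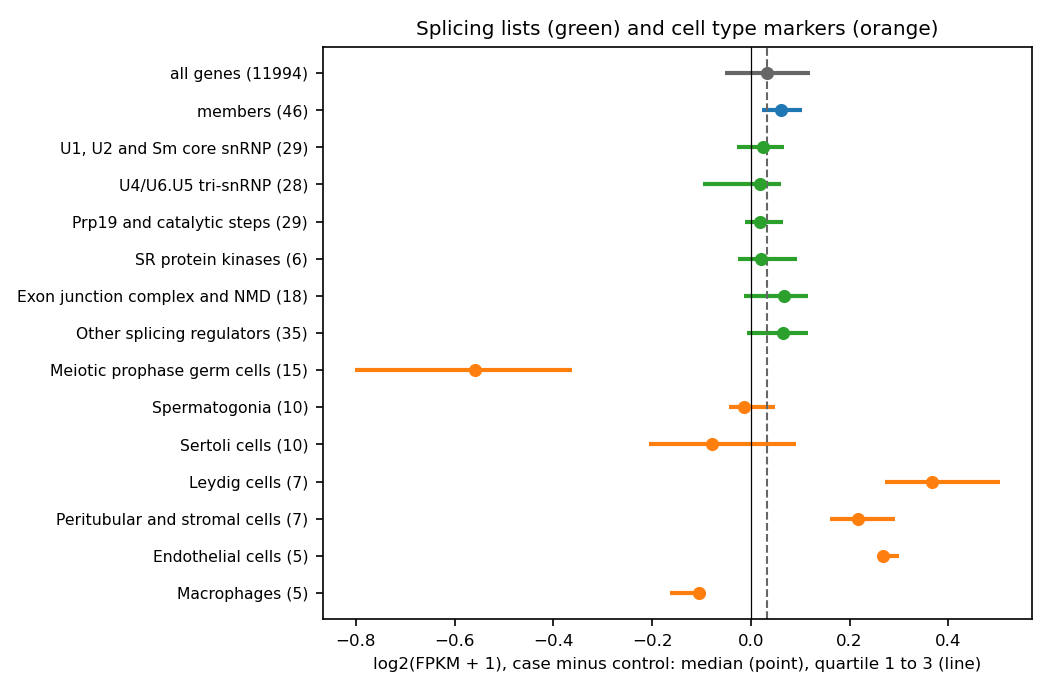
Median (point) and middle quartiles (line) of case minus control on the scale of log2(FPKM + 1) for all genes, the splicing factors, 6 further splicing lists (green) and 7 cell type marker lists (orange), with the number of genes in brackets. The splicing lists lie between 0.02 and 0.07 around the dashed median of all genes, and the meiotic markers at -0.56 and Leydig markers at 0.37 lie far from it.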

How the data were processed

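The authors deposited 1 table of FPKM for the whole series, with a pooled value per group in columns named case and control, and with the p-value, q-value, test statistic, log2 ratio and status of each RefSeq transcript, per the file headers. TopHat2 2.0.9 and the build mm10 are named in the submitters' processing notes. What program turned alignments into FPKM is not stated there or elsewhere in the labels. The deposited log2 ratio and the test statistic, other values per the file headers, were not used beyond checking that the ratio is that of control over case (to within 5.01e-05).

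FPKM was summed over the rows that share a first gene name. The 4084 rows without a name were left out of sums and were joined by RefSeq accession as an alternative added after seeing the data. Genes were kept at a mean FPKM of at least 1, and differences are of log2(FPKM + 1), which understates changes of low genes. Calls are the authors' own (q under 0.05, status OK). Starts were read as counting from 0, since 13901 equal the RefSeq start less 1, and 1 was added. Depth is unknown. Sums used Python 3.11.15 and pandas 2.3.3. The rescaling, fold counts, adjustment of p-values and quantile normalization were tested on simulated data, while the sums were not. Members, lists and tests were chosen with earlier results of these data known. Every member may be named, and of each further splicing list the 3 genes with the smallest p in the authors' deposited table for their row of highest FPKM.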

Additional observations from a re-analysis of the deposited data

How the results depend on the processing

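The median difference of the splicing factors (0.06) lay between 0.02 and 0.06 under all 9 alternatives and kept its sign. A minimum mean of 5 FPKM keeps the same 46 genes, so the median could not change there. It was smallest, at 0.02, after rescaling by the median of ratios, and 0.04 with quantile normalization. The count of called member rows stayed at 0 at a q-value under 0.10 and when p-values were adjusted again over tested rows with a mean FPKM of at least 1. The count of genes higher by at least 25% was 2 with no filter, where Srsf12 enters, 2 with the highest row only, where Hnrnpa3 enters, and 0 with rows joined by RefSeq accession, an alternative chosen after seeing the data. Counting rows of every status with a mean FPKM of at least 1 gave 2 rows at least 1.5-fold lower. With rows of status OK only, the median of the largest shift in transcript share was 1.45 points, over fewer genes, and with every row counted, rows at 0 included, it was 2.36. After rescaling by the median of ratios the medians were -0.011 for TRA2, -0.035 for PTB, -0.0031 for CELF and MBNL, -0.0097 for U1, U2 and Sm core, -0.017 for the tri-snRNP, -0.017 for Prp19 and catalytic steps and -0.015 for SR kinases. With rows joined by accession the RBMX median was 0.032 and that of CELF and MBNL 0.074, where the difference of Mbnl1 rose from 0.019 to 0.103. Of single members, 9 of 46 changed sign under the median of ratios and 4 with the highest row only. Quantile normalization changed the sign of 3, and Hnrnpa2b1 came to 0. With a pseudocount of 0.1 or 5 the count was 0, which was fixed in advance, since a pseudocount cannot change a sign. No paired analysis was possible because the table pools the libraries of a group, and for the same reason no library could be left out. Depth is unknown and sets no interval.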

Other observations

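The genes named first were picked once their values were known. Luc7l, of the U1 snRNP, was at 15.9 and 12.7 FPKM in the case and control columns, and Lsm5, of the U6 snRNP, at 6.27 and 8.11, 1.29-fold lower. Snrpg was 1.29-fold lower, Elavl2 1.30-fold lower and Khdrbs2 1.58-fold lower. These 5 and Clk1 were the genes, of 145 analysed in the further splicing lists, higher by at least 25% or lower by at least 20%. Luc7l and Clk1 were the higher ones. Of all genes, 6.05% were higher and 4.10% lower by these bounds.

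Hnrnpdl and Hnrnpll stand in the table under older names and so fell outside the rule. They were at 97.0 and 93.6 FPKM and at 33.1 and 32.6 FPKM, with p = 0.831 and p = 0.925 in the authors' deposited table.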
